A study of Homo sapiens with 65 samples.

Results

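Serum response factor (SRF) and 9 genes of the smooth muscle and actin cytoskeleton that it is known for were followed through human left-ventricular cardioids with and without intact hyaluronan. The set was a fixed list: SRF, TAGLN, TAGLN2, CNN1, CALD1, TPM2, ACTA2, MYL9, VCL and FLNA. It made up 10 of the 58735 genes in the count table, and each of the 10 was found there and passed the filter on low counts. The genes were chosen by hand after TAGLN had been called at day 4.5 both in HAS2 knockout and in hyaluronidase-treated cardioids, so the set was selected on the TAGLN counts of that day. Values and counts of day 4.5 are therefore given as a description, with no p-value, and nothing is read from them.

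Cardioids are self-organising heart-like aggregates, grown here from WTC-11, a human induced pluripotent stem cell line. HAS2 encodes an enzyme that makes hyaluronan, a long polysaccharide of the matrix between cells, and hyaluronidase breaks it down. In the genotype arm (41 libraries), the lines named WT, WT_TU, cl43_WT_UT and TNT2 were wild type (WT), and the clones cl4, cl14, cl46 and cl51 were labelled HAS2 knockout (KO). Day 1.5 was represented by 5 WT and 6 KO libraries, days 2.5 and 4.5 by 6 of each genotype, and day 7.5 by 3 of each. Clone cl4 supplied repeated KO libraries at each day, as the line WT did among the WT libraries. Clones cl46 and cl51 had no library at day 7.5. In the enzyme arm (24 libraries, 3 in each group), hyaluronidase was added from day 1.5 (HAse1.5), from day 2.5 (HAse2.5) or not at all (untreated), and replicates 1, 2 and 3 were the lines TNNI1, WT and TNNT2. Untreated and HAse1.5 cardioids were collected at days 2.5, 4.5 and 7.5, and HAse2.5 cardioids at days 4.5 and 7.5. Every group had been induced to mesoderm, and the cells of the later groups had been dissociated at day 1.5 and reseeded with a ROCK inhibitor until the medium change at day 2.5. Each library pooled 8 cardioids, and p-values measure the spread between these libraries. In the genotype arm, repeats of a line count as separate libraries, so this is not the spread between independent lines or clones. In bulk RNA, fewer cells of a type and less RNA per cell cannot be told apart.

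SRF is a transcription factor that binds a short A- and T-rich element called the CArG box. Its target genes depend on its partners. The myocardin-related factors MRTFA and MRTFB are held in the cytoplasm by monomeric actin and released when actin polymerises, myocardin (MYOCD) acts in heart and smooth muscle, and the ternary complex factors of the ELK family link SRF to immediate early genes. In the embryonic heart tube, cardiomyocytes express several smooth muscle genes for a time, among them those for smooth muscle actin and transgelin, so these genes do not mark smooth muscle cells alone at this stage.

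The promoters of 4 of these genes are shown because they hold a CArG box or a close match in the 250 bases before a start that RefSeq annotates. RefSeq starts need not be the gene starts of GENCODE, and a gene can have several. Sequences are from RefSeq (GRCh38.p14), on the strand of the gene and from 5′ to 3′, and the matches are in capitals. A CArG box was taken as CC, then 6 letters that are A or T, then GG, and a close match as the same with 5 of the 6 letters A or T. Both strands were searched, and no match overlapped another in these windows.
SRF, chr6:43171019-43171268, plus strand: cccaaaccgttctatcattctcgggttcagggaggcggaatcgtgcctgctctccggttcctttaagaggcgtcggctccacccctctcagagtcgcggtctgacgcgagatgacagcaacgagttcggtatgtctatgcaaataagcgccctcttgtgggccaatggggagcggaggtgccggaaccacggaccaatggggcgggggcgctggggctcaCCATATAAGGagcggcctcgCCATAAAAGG
FLNA, chrX:154374635-154374884, minus strand: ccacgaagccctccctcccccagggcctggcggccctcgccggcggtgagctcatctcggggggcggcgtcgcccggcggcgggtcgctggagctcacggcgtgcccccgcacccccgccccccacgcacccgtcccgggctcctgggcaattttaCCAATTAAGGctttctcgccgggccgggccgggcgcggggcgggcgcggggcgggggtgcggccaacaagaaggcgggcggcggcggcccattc
ACTA2, chr10:88952774-88953023, minus strand: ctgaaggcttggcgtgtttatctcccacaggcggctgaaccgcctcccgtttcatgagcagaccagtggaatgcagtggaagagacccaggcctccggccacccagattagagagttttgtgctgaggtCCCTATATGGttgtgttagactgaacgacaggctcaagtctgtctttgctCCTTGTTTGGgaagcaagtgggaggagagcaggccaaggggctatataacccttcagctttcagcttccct
CALD1, chr7:134711249-134711498, plus strand: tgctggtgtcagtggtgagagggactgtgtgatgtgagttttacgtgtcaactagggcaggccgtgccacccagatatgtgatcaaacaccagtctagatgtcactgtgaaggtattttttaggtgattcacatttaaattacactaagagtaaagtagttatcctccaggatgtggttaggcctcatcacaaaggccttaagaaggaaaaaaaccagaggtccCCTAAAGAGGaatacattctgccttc
SRF had 2 full CArG boxes, which began 30 and 10 bases before the RefSeq start that follows this window. FLNA had 1, which began 94 bases before its RefSeq start. ACTA2 had 2 close matches, at 121 and 71 bases before the RefSeq start of the window shown, and CALD1 had 1, at 26 bases before. SRF and ACTA2 each had 2 windows and CALD1 had 4, and in each of these genes 1 window held a match and the others held none. FLNA had 1 window. The start of the SRF window shown lies upstream of the GENCODE gene start (43171299), and so does that of CALD1 (GENCODE start 134744252), while the ACTA2 window lies inside the GENCODE gene (88935074 to 88991339). A full box was present in 1.16% of 35116 promoter windows of this length and a full box or close match in 7.04%. Counted by gene, over any of its windows, the shares were 1.44% and 8.6% of 27305 genes. The windows of CNN1, TPM2, VCL and TAGLN2 held neither, and TAGLN and MYL9 were not matched to a window. A match describes the letters of these windows only.

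Total counts ranged from 831062 to 3574843 per library (median 1570954). Levels from this 3′ library kit are given as CPM, counts scaled to the same library total. They are used to compare a gene or a summed list between libraries, not genes with each other. HAS2 reads ranged from 86.98 to 309.6 CPM in WT and from 93.9 to 301.1 CPM in KO libraries at day 1.5, and the log2 differences between KO and WT at the 4 days lay between −0.26 and 0.18, none of them called. A 3′ tag outside an edited part of the gene does not check the knockout, and where the edit lies is not given in the sources used here. The strand setting of the counting is not given either, so reads where TAGLN overlaps PCSK7 by 446 bases, VCL overlaps AP3M1 by 1109 bases, or ACTA2 overlaps STAMBPL1, on opposite strands, cannot be assigned with certainty.

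The ranges of the 10 genes were taken over the 16 groups, those of day 4.5 included. The range of group means on the log2 CPM scale was 9.79 for ACTA2, 6.6 for TAGLN2, 5.77 for TAGLN and 5.18 for MYL9, against a median range of 1.80 over 14047 genes. CNN1 (3.60), SRF (2.62) and TPM2 (2.26) also ranged further than that median. FLNA (1.74), CALD1 (1.56) and VCL (1.34) stayed below it. The lowest group of TAGLN was KO at day 4.5, the day whose TAGLN counts chose the genes. That of MYL9, CNN1, TPM2 and VCL was HAse1.5 at day 4.5. ACTA2 passed the filter on low counts only through its later groups, which fixes its wide range. The ranges of these 6 genes are a description, and nothing is read from their place beside the median.

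**Figure D1:**
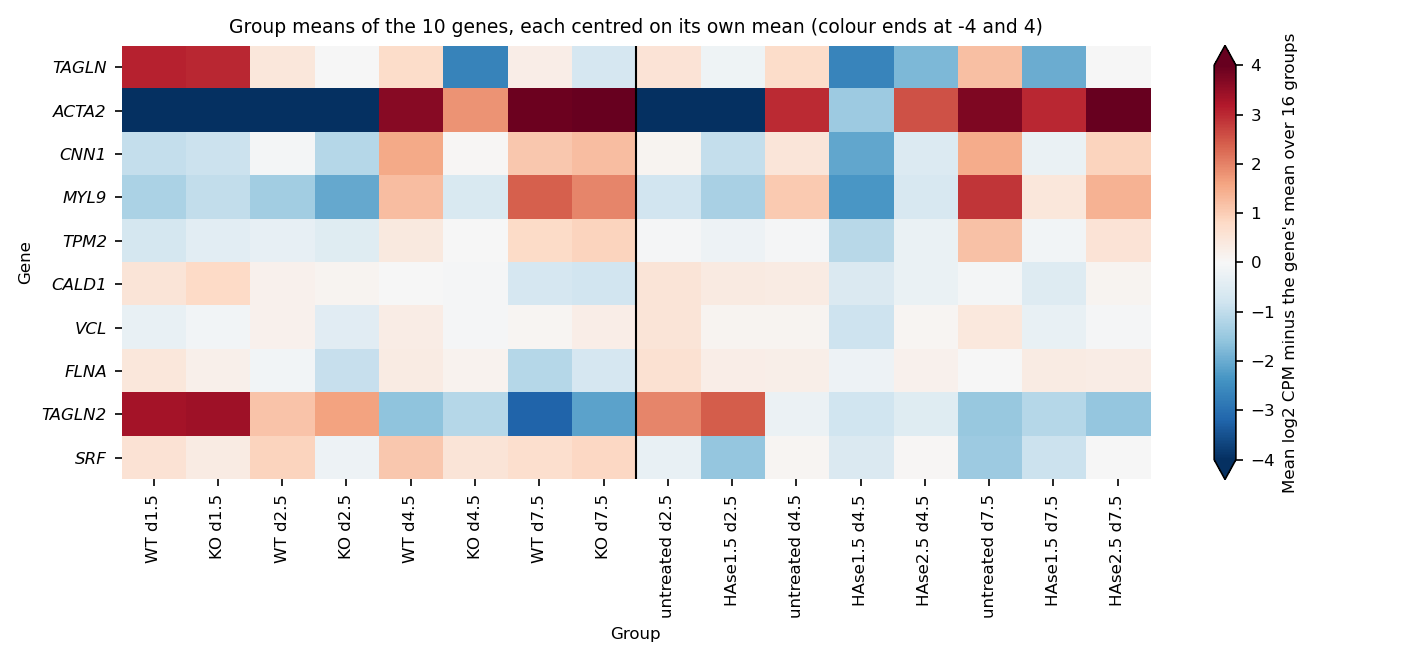
Heat map of group means of the 10 genes (rows) in the 16 groups (columns; genotype arm left of the black line, enzyme arm right), each gene centred on its own mean over the groups, in log2 CPM. ACTA2 runs from deep negative at days 1.5 and 2.5 to positive at day 7.5, TAGLN2 runs the other way, and TAGLN is lowest in KO and HAse1.5 cardioids at day 4.5.

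TPM2, MYL9 and CNN1 followed each other across the groups, with Pearson r of 0.93 for TPM2 and MYL9, 0.93 for CNN1 and TPM2, and 0.91 for CNN1 and MYL9 (16 group means). The r of ACTA2 and TAGLN2 was −0.92. ACTA2 had few counts in every group before day 4.5 and passed the filter on low counts only through its later groups. This r cannot be told apart from that step, so no opposite course of ACTA2 and TAGLN2 is read from it. Over the same 16 means, the r of TAGLN was 0.16 with CNN1, 0.12 with MYL9 and 0.08 with TPM2. SRF itself had r between −0.20 and 0.27 with the other 9. The 5 genes outside the set whose group means were most like those of TAGLN were PCCA-DT (r = 0.91), GOT2 (0.90), C12orf75 (0.90), TEAD4 (0.90) and CLDN6 (0.89). These correlations describe 16 means that share libraries of the same lines and days. They include the means of day 4.5, whose TAGLN counts chose the genes. No shared or separate course of TAGLN is therefore read from them.

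SRF transcripts (ENSG00000112658, chromosome 6, 43171299 to 43181507, plus strand, GRCh38) were detected in every library but varied strongly between libraries of a group. In WT they ranged from 125.6 to 530.9 CPM at day 1.5 (median 197.4), from 205.9 to 511.3 at day 2.5 (median 318.8) and from 177.8 to 455.7 at day 7.5 (median 243.6). In KO at day 2.5 they ranged from 102.3 to 229.7 CPM (median 156.9). The KO range reached into the WT range, and the log2 difference of −1.10 (SE 0.43) was not called (edgeR adjusted p = 0.304). Single libraries of the enzyme arm stood far below their group: 8.788 CPM (11 counts) in the WT line of HAse1.5 day 2.5, beside 137.3 and 150.5, and 18.55 CPM (25 counts) in the TNNT2 line of untreated day 7.5, beside 50.86 and 229.1. SRF was called in none of the comparisons tested.

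**Figure D2:**
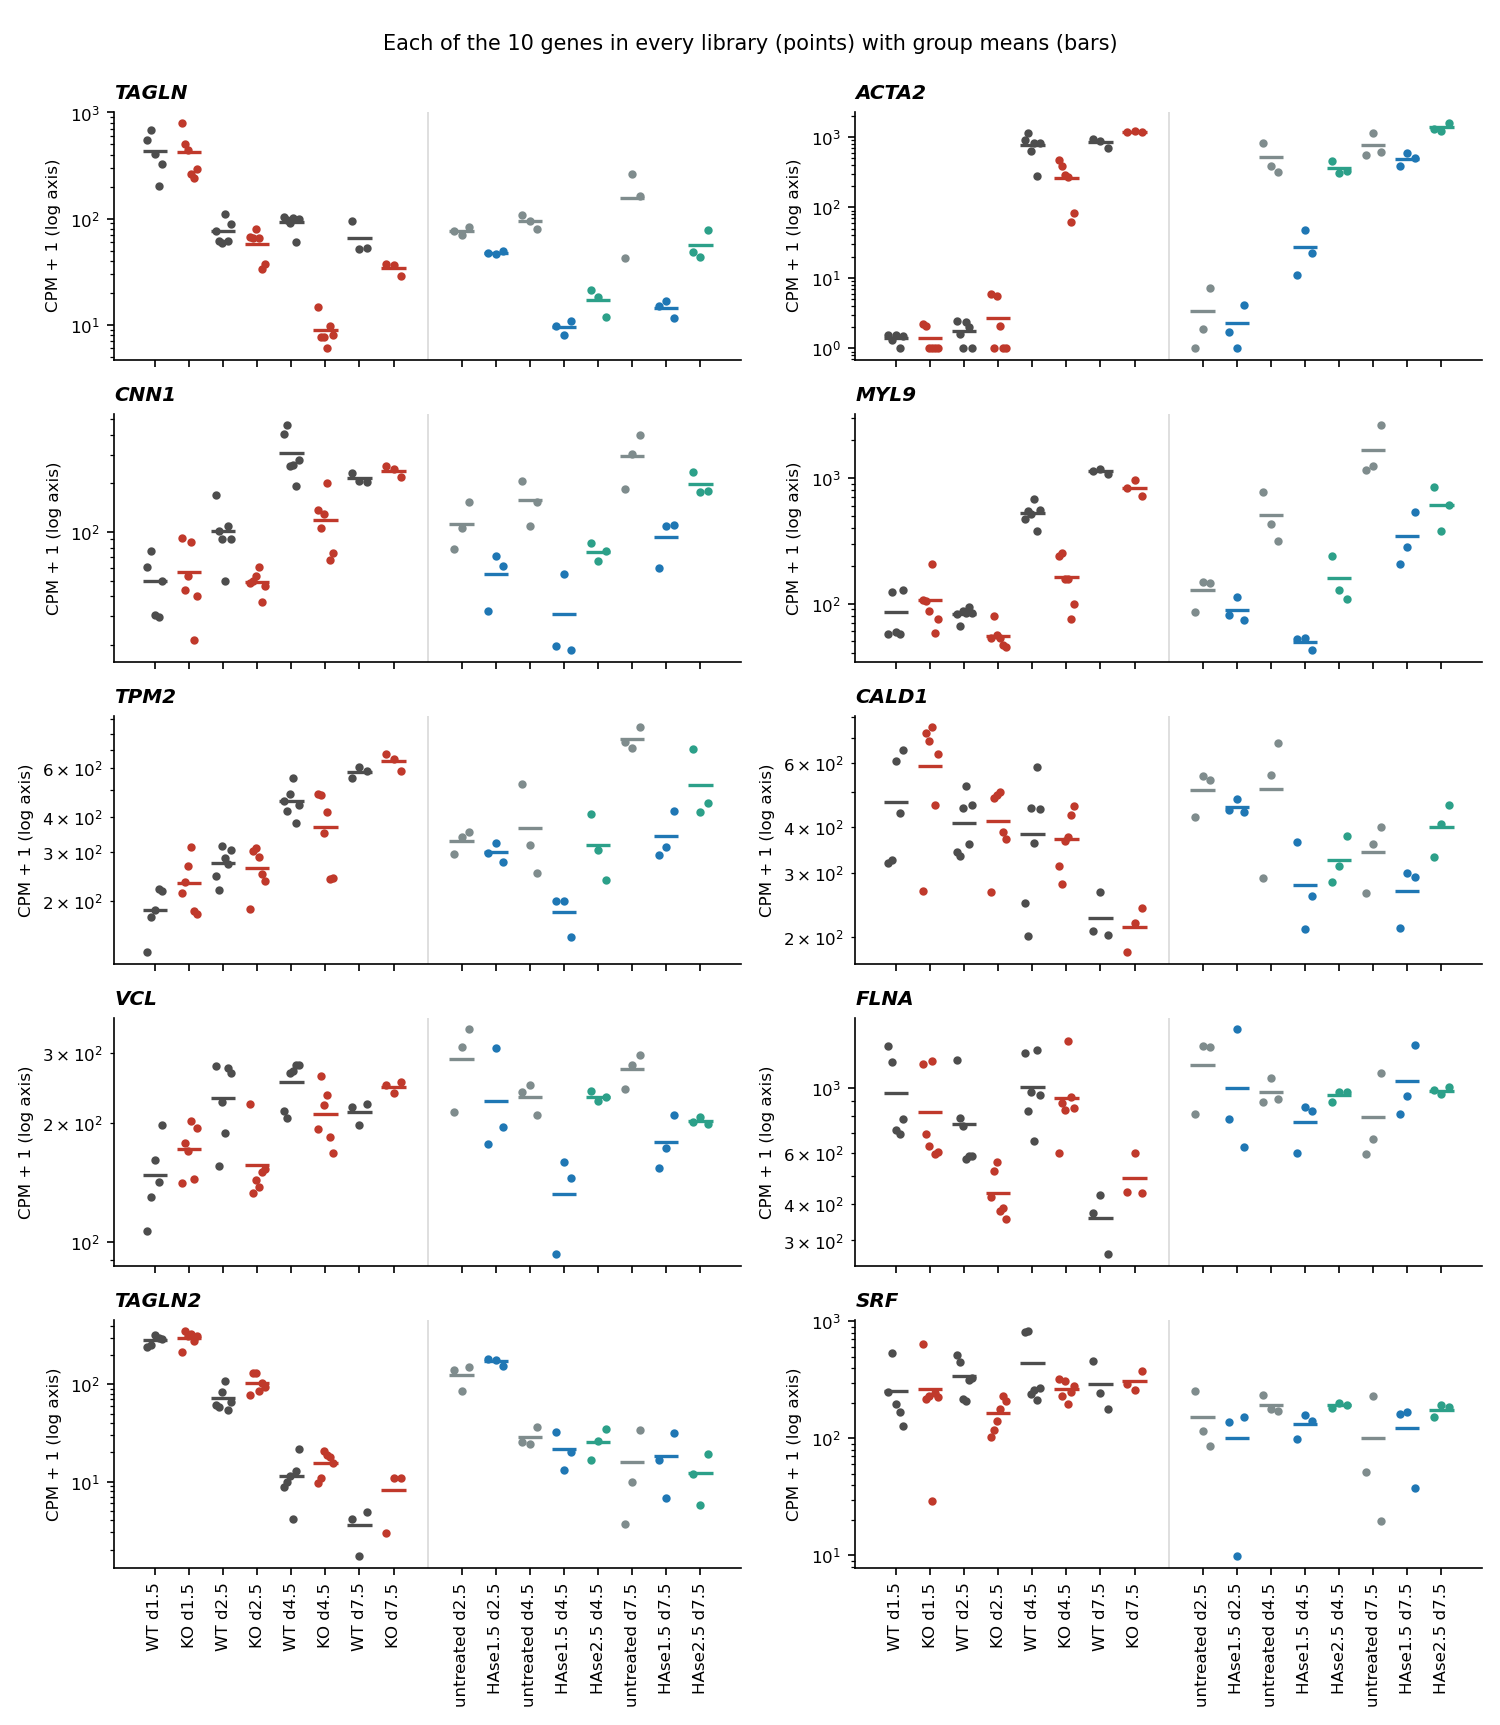
CPM + 1 on a log axis (vertical) of each of the 10 genes in each of the 65 libraries (points), by group (horizontal), with group means as bars. ACTA2 sits near 0 CPM at days 1.5 and 2.5, and SRF scatters more widely within groups than TPM2 or VCL.

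TAGLN (transgelin; ENSG00000149591, chromosome 11, 117199321 to 117204782, plus strand), which encodes an actin-binding protein of smooth muscle and early heart, was highest before aggregation. The WT libraries at day 1.5 had 547.4, 682, 407.8, 200.9 and 325.1 CPM, a mean of 432.6 ± 188 (SD, n = 5). By day 2.5 the WT libraries ranged from 57.78 to 109.6 CPM (median 67.83), so no day 2.5 library reached the lowest one of day 1.5. TAGLN fell by 2.76 on the log2 scale over this step (SE 0.31, edgeR adjusted p = 3.209e-09). It then stayed near that level in WT: 92.89, 50.95 and 51.73 CPM at day 7.5, a log2 difference from day 2.5 of −0.12 (SE 0.36, adjusted p = 0.831). Untreated cardioids had 74.56, 69.75 and 82.99 CPM at day 2.5 and 41.05, 261 and 164 CPM at day 7.5. Their rise was called (log2 fold change 1.03, SE 0.37, adjusted p = 0.0324), although the TNNI1 line was below its day 2.5 value, and without the WT line of day 7.5 it was 0.46 (adjusted p = 0.333). The call was also lost without any 1 of the 3 libraries of day 2.5 or without the TNNT2 line of day 7.5 (0.96 to 1.11, adjusted p from 0.0558 to 0.0927).

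In the order of group means, WT and KO at day 1.5 came first (432.6 and 421 CPM) and were followed by untreated day 7.5 (155.3 CPM). Neighbours from there down to HAse1.5 at day 2.5 (46.75 CPM) overlapped in their libraries. KO at day 7.5 (33.33 CPM), HAse2.5 at day 4.5 (16.07) and HAse1.5 at day 7.5 (13.38) were lower. HAse1.5 at day 4.5 (8.499 CPM) and KO at day 4.5 (7.949 CPM) came last. The libraries of those last groups overlapped.

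**Figure D3:**
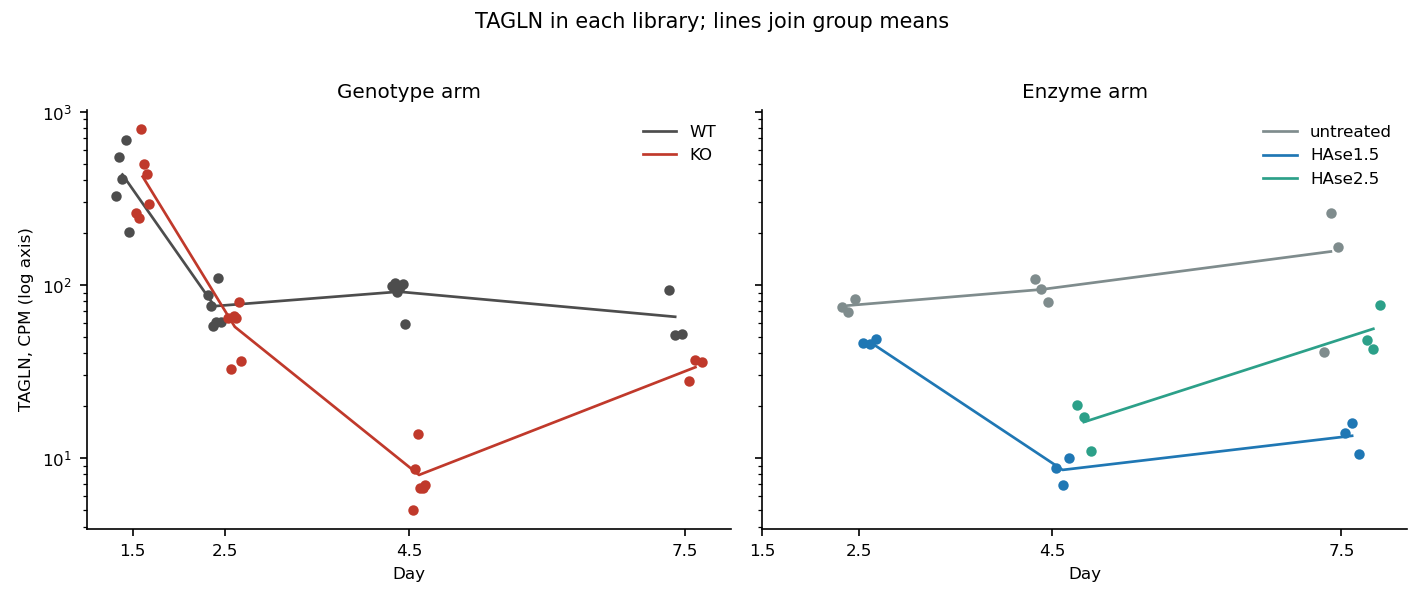
TAGLN CPM on a log axis (vertical) by day (horizontal) in each library (points), genotype arm left and enzyme arm right, with lines through group means. WT and untreated libraries stay at 41.05 CPM or above on each day, KO and HAse1.5 libraries are at 13.71 CPM or below at day 4.5, and at day 7.5 KO libraries are at 27.88 to 36.44 CPM and HAse1.5 libraries at 10.46 to 15.82 CPM.

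TAGLN2 (chromosome 1), the widely expressed relative of TAGLN, went down throughout. The WT libraries had 239.7 to 321.1 CPM at day 1.5 (median 291), 53.54 to 108.2 at day 2.5 (median 62.97) and 3.079, 0.6979 and 3.88 at day 7.5. No range reached the one before it. TAGLN2 fell by 2.19 (SE 0.26, edgeR adjusted p = 1.408e-08) from day 1.5 to 2.5 and by 4.66 (SE 0.45, adjusted p = 6.335e-11) from day 2.5 to 7.5. In untreated cardioids it fell by 3.05 (SE 0.57, adjusted p = 0.000273) from day 2.5 to 7.5, from 137.4, 84.96 and 149.7 CPM to 2.677, 8.934 and 32.64 CPM.

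ACTA2 (smooth muscle alpha-actin, chromosome 10) appeared between days 2.5 and 4.5. WT libraries held 0 to 2 counts at day 1.5 and 0 to 4 at day 2.5. They had 280.1 to 1134 CPM at day 4.5 (median 820.1) and 940.2, 867.5 and 689.9 CPM at day 7.5. ACTA2 passed the filter on low counts through its libraries of days 4.5 and 7.5 and so had to differ from the earlier days. No test or fold is therefore given for its course.

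MYL9, the regulatory light chain of smooth and non-muscle myosin (chromosome 20), rose after day 2.5. WT libraries had 64.78 to 92.29 CPM at day 2.5 (median 82.97) and 1144, 1169 and 1068 CPM at day 7.5. The rise was 3.86 on the log2 scale (SE 0.33, adjusted p = 1.81e-12) in WT and 3.74 (SE 0.48, adjusted p = 6.077e-06) in untreated cardioids. TPM2 (beta-tropomyosin, which lies along actin filaments, chromosome 9) went from 218.7 to 315.3 CPM at day 2.5 (median 276.8) to 551.2, 603.7 and 584.5 CPM at day 7.5, a rise of 1.16 (SE 0.21, adjusted p = 3.492e-05). CNN1 (calponin 1, an actin-binding regulator of smooth muscle contraction, chromosome 19) went from 48.86 to 167.4 CPM (median 95.28) to 231.5, 206.6 and 203 CPM, a rise of 1.15 (SE 0.36, adjusted p = 0.0117). In all 3 genes the day 7.5 libraries lay above all those of day 2.5. The CNN1 call rests on WT_R1 of day 7.5, without which the rise was 1.07 (adjusted p = 0.0505). In untreated cardioids TPM2 rose by 1.21 (SE 0.26, adjusted p = 0.000727) and CNN1 by 1.4 (SE 0.39, adjusted p = 0.0071; 0.0503 without the TNNT2 line of day 7.5).

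CALD1 (caldesmon, which restrains actomyosin, chromosome 7) and FLNA (filamin A, which cross-links actin, chromosome X) fell in WT from day 2.5 to 7.5, by 0.80 (SE 0.28, adjusted p = 0.0225) and 1.02 (SE 0.32, adjusted p = 0.0106). CALD1 had 333.2 to 517.9 CPM at day 2.5 (median 404.9) and 207.3, 265.2 and 201.7 CPM at day 7.5. FLNA had 568.8 to 1249 CPM (median 664.3) and then 371.6, 429.2 and 267.7 CPM. The days did not overlap for either gene. Without WT_TU_R2 of day 7.5 neither was called (adjusted p = 0.0979 and 0.0836), nor was CALD1 without WT_R1 (0.0819). In untreated cardioids the differences were −0.57 (SE 0.24, adjusted p = 0.0678; −0.58 and adjusted p = 0.0366 with the line as a block) for CALD1 and −0.59 (SE 0.30, adjusted p = 0.133) for FLNA. VCL (vinculin, which ties actin to focal adhesions and intercalated discs, chromosome 10) rose by 0.46 (SE 0.16, adjusted p = 0.0268) from day 1.5 to 2.5, from 105.5 to 196.4 CPM to 154.2 to 276.8 CPM, ranges that overlap. This call was lost without WT_R1, WT_TU_R1 or cl43_WT_UT of day 1.5, or WT_R1, cl43_WT_UT or TNT2 of day 2.5 (adjusted p from 0.0538 to 0.0942). The CNN1 difference over that step was 0.83 and not called (adjusted p = 0.0527). It was past the threshold in 6 of 16 alternatives: RLE size factors (adjusted p = 0.0445), DESeq2 (0.0331), the library-number block (0.92, adjusted p = 0.00688), and the fits without WT_R1 or WT_TU_R1 of day 1.5 or WT_TU_R2 of day 2.5.

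Over WT as a whole, 3 of the 10 were called from day 1.5 to 2.5 (30.1% of all genes tested were), 1 higher and 2 lower (15% and 15.1% of all genes). From day 2.5 to 7.5, 7 were called (35.2%), 4 of these higher and 3 lower (18.1% and 17.2%). In untreated cardioids 6 were called over that span (34.9%), 5 higher and 1 lower (17.8% and 17.1%). The libraries of the days did not overlap for 2 of the 10 in the first WT step (16.2% of all genes), 7 in the second (36%) and 6 in untreated cardioids (43.3%). ACTA2, which the filter kept only for its later libraries, is among the 7 and the 6 of both counts from day 2.5 to 7.5, and gives them no support. The median log2 fold changes of the 10 were −0.04, −0.09 and 0.47 in these steps, against 0.01, −0.02 and 0.00 over all genes tested.

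Between genotypes, 0 of the 10 were called at day 1.5 (0% of 13797 genes). There 591 genes (4.28%) had an unadjusted p under 0.05, and DESeq2 called 0 of the 10 as well. TAGLN had 792.5 down to 242.4 CPM in the 6 KO libraries, with a median of 365.6, against 407.8 in WT. The groups overlapped for each of the 10 genes, with 0.138% of all genes not overlapping. The median log2 fold change of the 10 was 0.17 (0.00 over all genes).

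At day 2.5, 1 of the 10, VCL, was called (0.993% of all genes were, 0.5% in that direction), and it was lower in KO. VCL had 154.2 to 276.8 CPM in WT (median 244.8) and 131.8 to 222.6 in KO (median 145.8). The KO library cl4_R1 reached into the WT range with 222.6 CPM, and the other 5 KO libraries, at 131.8 to 152.1 CPM, were below all WT libraries. The log2 fold change was −0.62 (SE 0.16, edgeR adjusted p = 0.0325, n = 6 and 6 libraries, some of them repeats of a line). It was past the threshold in 7 of 17 alternative settings, with adjusted p from 0.00494 to 0.129, and was lost on leaving out any of 8 single libraries: WT_R1, WT_R2, cl43_WT_UT and TNT2 of WT, and cl4_R2, cl4_R3, cl14_R1 and cl46_R1 of KO. By library-number block (R1 libraries of WT, WT_TU and cl4 in A, their R2 repeats in B, all else in C), the difference was −0.15 in A, −0.65 in B and −0.92 in C.

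FLNA and CNN1 showed the next differences at day 2.5, neither of them called. FLNA had 355.3 to 555.9 CPM in KO (median 405.1), below every WT library at 568.8 CPM or more, with 1.82% of all genes not overlapping (log2 −0.84, SE 0.25, edgeR adjusted p = 0.1). CNN1 had 35.73 to 60.06 CPM in KO (median 47.97) against 48.86 to 167.4 in WT (log2 −1.11, SE 0.32, adjusted p = 0.0817), and DESeq2 called it (adjusted p = 0.0344), as did the fit of these groups alone (0.0298) and the fit without WT_TU_R2. TAGLN had 32.54 to 78.94 CPM in KO (median 64.27), inside the WT range in part (log2 −0.44, SE 0.29, adjusted p = 0.606). The median of the 10 was −0.53, against 0.01 over all genes.

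At day 7.5, 0 of the 10 were called between KO and WT (0.348% of all genes). There 763 genes (5.53%) had an unadjusted p under 0.05, and DESeq2 called 0 of the 10. TAGLN had 36.44, 35.68 and 27.88 CPM in KO and 92.89, 50.95 and 51.73 CPM in WT. The KO libraries were the lower ones without overlap, and the log2 difference was −1.01 (95% interval −1.87 to −0.16, adjusted p = 0.71). TAGLN2 had the widest difference of the 10, in the other direction and on few reads: 1.952, 9.784 and 9.956 CPM in KO (3 to 17 counts) and 3.079, 0.6979 and 3.88 CPM in WT (1 to 6 counts). The lowest KO library, cl4_R2, lay inside the WT range, and the log2 difference was 1.42 (95% interval 0.34 to 2.49, adjusted p = 0.531). For TAGLN within block B, the only one with both genotypes at this day (1 KO and 2 WT libraries), the difference was −0.47. ACTA2 had 1192, 1206 and 1179 CPM in KO, above WT at 940.2, 867.5 and 689.9, with a log2 difference of 0.48 (SE 0.55, adjusted p = 1). Of the 10 genes, 5 did not overlap between the groups (16.8% of all genes): ACTA2, FLNA and VCL were higher and MYL9 and TAGLN lower in KO. Blocks A and B supplied the WT libraries here, and B and C supplied those of KO, so block and genotype cannot be told apart beyond the within-block values. Whether the KO difference changed over days 1.5, 2.5 and 7.5 was tested together. None of the 10 was called (0.304% of all genes), and VCL had the lowest adjusted p (0.168; 0.0275 in DESeq2, which called it, as did edgeR without WT_TU_R1 of day 2.5).

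**Figure D4:**
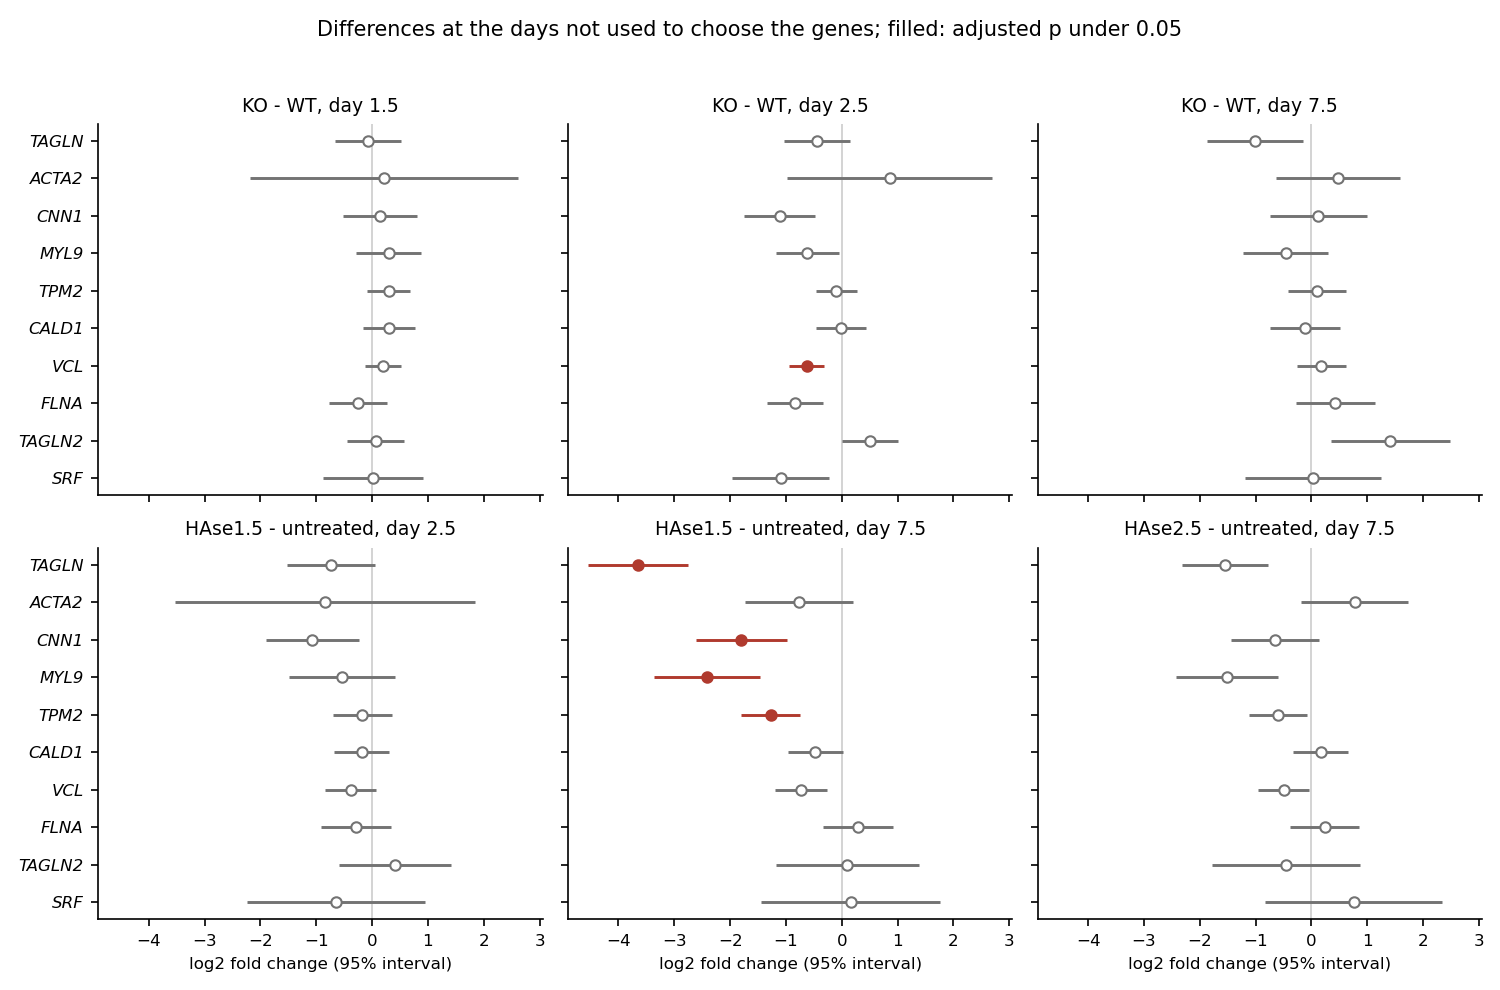
Log2 fold changes (horizontal) with 95% intervals of the 10 genes (vertical) in the comparisons at days not used to choose the genes, filled where the edgeR adjusted p is under 0.05. VCL is filled in KO at day 2.5, and TAGLN, MYL9, CNN1 and TPM2 are filled in HAse1.5 at day 7.5, all to the left of 0.

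With hyaluronidase from day 1.5, 0 of the 10 were called at day 2.5 (1.15% of 12748 genes). There 1175 genes (9.22%) had an unadjusted p under 0.05, and DESeq2 called 0 of the 10. TAGLN had 45.99, 45.54 and 48.71 CPM with enzyme and 74.56, 69.75 and 82.99 CPM without. Each treated library was below each untreated one, and the log2 difference was −0.74 (SE 0.38, adjusted p = 0.602). CNN1 had 31.57, 70.3 and 60.58 CPM against 77.62, 104.6 and 151.4 CPM, again without overlap (log2 −1.08, SE 0.40, adjusted p = 0.305). TAGLN2 had 179.8, 177.3 and 154.3 CPM against 137.4, 84.96 and 149.7, the treated libraries being the higher ones (log2 0.41, SE 0.49, adjusted p = 0.948). These were the 3 of 10 genes without overlap, as were 13.5% of all genes. The median log2 fold change of the 10 was −0.47, against 0.00 over all genes.

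At day 7.5, 4 of the 10 were called with hyaluronidase from day 1.5, all 4 lower (3.33% of all genes were called, 1.92% lower). TAGLN had 13.86, 15.82 and 10.46 CPM in treated cardioids and 41.05, 261 and 164 CPM in untreated ones. The groups did not overlap, and the untreated TNNI1 line was the nearest. TAGLN fell by 3.65 on the log2 scale, 12.6-fold (SE 0.43, edgeR adjusted p = 5.914e-05). Line by line the difference was −1.57 in TNNI1, −4.04 in WT and −3.96 in TNNT2, so all 3 lines were lower with enzyme and TNNI1 least.

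MYL9 had 203.8, 282.6 and 536.7 CPM with enzyme and 1153, 1244 and 2636 CPM without. The TNNT2 line was the highest of both groups, and each treated library was below each untreated one. MYL9 fell by 2.42 (SE 0.45, adjusted p = 0.00486), and by 2.58, 2.23 and 2.43 in the 3 lines. CNN1 had 58.68, 107.9 and 109.4 CPM against 184.7, 303.8 and 398.4 CPM, a fall of 1.80 (SE 0.39, adjusted p = 0.0114). TPM2 had 291.8, 312.8 and 421.7 CPM against 745.9, 706.4 and 842.7 CPM, a fall of 1.27 (SE 0.26, adjusted p = 0.00571). Neither gene overlapped between the groups. Without the treated TNNI1 line, the calls of CNN1 (−1.56, adjusted p = 0.0902) and TPM2 (−1.17, adjusted p = 0.0551) were lost, and without the untreated TNNT2 line, that of CNN1 (−1.5, adjusted p = 0.0707).

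VCL had 152.4, 171.1 and 208.4 CPM with enzyme and 241.8, 278.2 and 296 CPM without, and was the fifth gene without overlap (17.7% of all genes did not overlap). Its log2 difference was −0.73 (SE 0.23, adjusted p = 0.0741), and with the line as a block the call was made (−0.73, adjusted p = 0.0397). ACTA2 had 384.7, 582.4 and 495.6 CPM against 549.6, 1137 and 619.4 CPM, groups that overlapped (log2 −0.77, SE 0.46, adjusted p = 0.432). CALD1, FLNA, TAGLN2 and SRF lay between −0.47 and 0.29 and were not called. The median of the 10 was −0.75, against 0.02 over all genes.

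With hyaluronidase from day 2.5, 0 of the 10 were called at day 7.5 (0.659% of all genes). At an unadjusted p under 0.05 there were 1717 genes (13.5%), and DESeq2 called 2 of the 10, TAGLN (adjusted p = 0.0136) and MYL9 (0.0246). TAGLN had 47.75, 42.28 and 76.62 CPM beside 41.05, 261 and 164 CPM in untreated cardioids. The groups overlapped, because the untreated TNNI1 line was the lowest of the 6 libraries (log2 −1.55, 95% interval −2.32 to −0.77, edgeR adjusted p = 0.0569). Line by line it was 0.24 in TNNI1, −2.65 in WT and −1.20 in TNNT2, and without the untreated TNNI1 library the log2 difference was −1.99 (adjusted p = 0.000536). MYL9 had 844.3, 377.8 and 610.3 CPM, below each untreated library (log2 −1.52, SE 0.44, adjusted p = 0.139). ACTA2 had 1294, 1225 and 1568 CPM, above each untreated library (log2 0.77, SE 0.46, adjusted p = 0.477). With TPM2 and VCL, which were lower, these made 4 of 10 genes without overlap (16.9% of all genes).

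Set directly against each other at day 7.5, the earlier start gave lower values of TAGLN than the later one in every library (13.86, 15.82 and 10.46 against 47.75, 42.28 and 76.62 CPM). The log2 difference was −2.10 (SE 0.43, adjusted p = 0.107, with 1 gene of 12748 called, 0.00784%). ACTA2, CALD1 and CNN1 were also lower without overlap (12% of all genes), by log2 differences of −1.54, −0.63 and −1.15. None of the 10 was called, where 719 genes (5.64%) had an unadjusted p under 0.05, and DESeq2 called TAGLN (adjusted p = 0.00398).

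**Figure D5:**
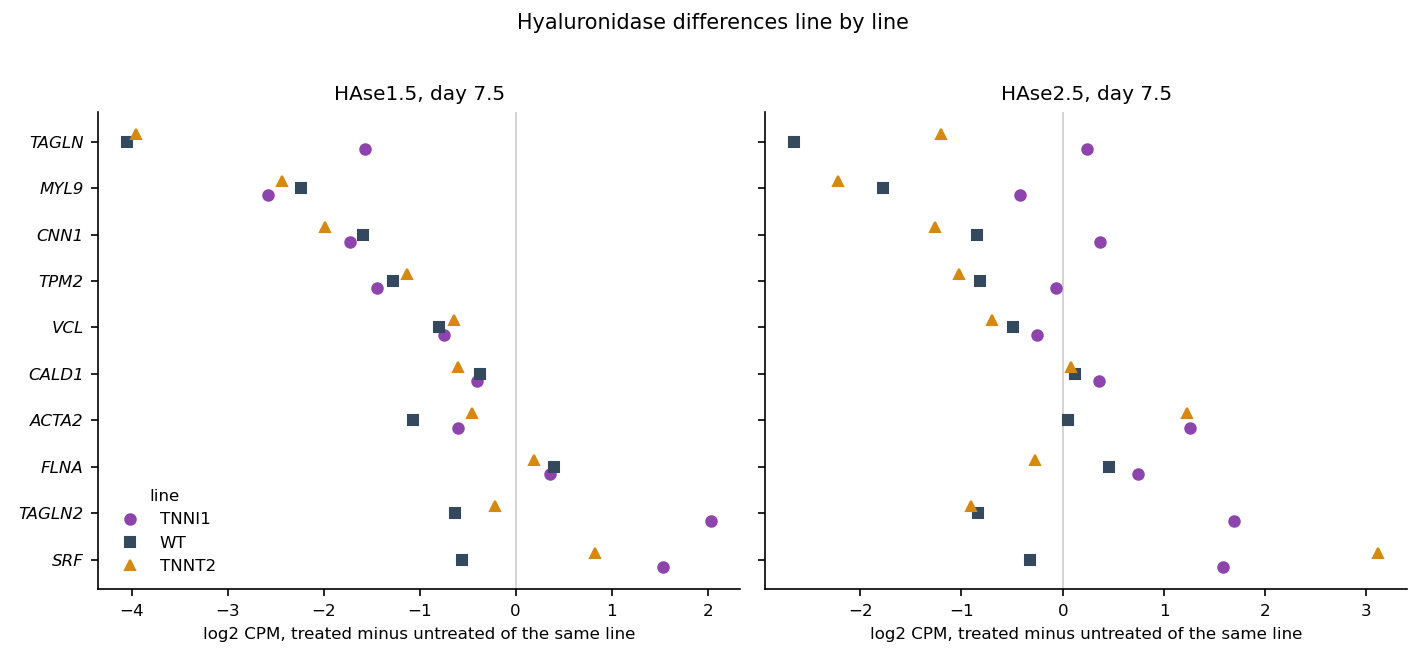
Log2 CPM of treated minus untreated cardioids of the same line (horizontal) for the 10 genes (vertical) in the enzyme arm, 1 point per line (TNNI1, WT and TNNT2). For HAse1.5 at day 7.5 the 3 points of TAGLN lie between −4.04 and −1.57 and those of MYL9 between −2.58 and −2.23, and for HAse2.5 at day 7.5 the TNNI1 point of TAGLN is at 0.24.

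The difference that hyaluronidase from day 1.5 made to TAGLN was itself compared between days 2.5 and 7.5. It was larger at day 7.5 by −2.92 on the log2 scale (SE 0.57, edgeR adjusted p = 0.00989), and TAGLN was the only one of the 10 called (1.13% of all genes; 0.377% towards lower). In a fit of the libraries of those groups alone it was −2.93 with an adjusted p of 0.0666. For MYL9 the change was −1.87 (SE 0.63, adjusted p = 0.181) and for TPM2 −1.10 (SE 0.36, adjusted p = 0.159). The labels give enzyme from day 1.5 up to the day of collection, so day and length of exposure cannot be told apart. The untreated controls of TAGLN themselves rose by 1.03 between these days, a call kept in 5 of 11 alternatives.

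The KO difference and the HAse1.5 difference, each against its own controls, were compared in a single fit of the 65 libraries. At day 2.5 they differed for TAGLN by 0.26 (SE 0.51, adjusted p = 0.992), and 0 of the 10 were called (0.0925% of 14047 genes). There 695 genes (4.95%) had an unadjusted p under 0.05, and DESeq2 called 0 of the 10. At day 7.5 the TAGLN difference of KO from WT lay 2.65 above that of HAse1.5 from untreated on the log2 scale (95% interval 1.4 to 3.91, edgeR adjusted p = 0.0761). This value compares the 2 differences and not the TAGLN levels of KO and HAse1.5 cardioids. Here 0 of the 10 were called (0.0925%), 1035 genes (7.37%) had an unadjusted p under 0.05, and DESeq2 called TAGLN (adjusted p = 0.0219). With the replicate block, TAGLN (3.04, adjusted p = 0.00363) and TPM2 (1.42, adjusted p = 0.0392) were called. TAGLN was also called without WT_R1 (3.04, adjusted p = 0.0466) or without the untreated TNNI1 line (3.13, adjusted p = 0.0102). The median of the 10 was 1.29 at day 7.5, against 0.00 over all genes.

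Day 4.5, the day that the choice of genes used, is only described here. TAGLN ranged from 59.33 to 102.1 CPM in WT (median 97.03) and from 4.983 to 13.71 CPM in KO (median 6.835), a log2 difference of −3.56. In the enzyme arm it had 107.8, 94.14 and 79.28 CPM without enzyme, 8.689, 6.914 and 9.894 CPM with HAse1.5 and 20.13, 17.17 and 10.9 CPM with HAse2.5, differences of −3.52 and −2.58. None of these groups overlapped with its controls. Without overlap were 2 of the 10 in KO (2.44% of all genes), 8 in HAse1.5 (21.6%) and 3 in HAse2.5 (16.5%), all of them lower. The HAse1.5 and HAse2.5 comparisons share the untreated libraries.

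Among the contractile genes at day 4.5, ACTA2 had 824.4, 385.4 and 320.6 CPM without enzyme, 9.93, 47.53 and 21.53 CPM with HAse1.5 and 447.8, 307.5 and 326.3 CPM with HAse2.5, so it was low with the earlier start and near the controls with the later one. In KO it ranged from 60.31 to 470.3 CPM (median 276.6), against 280.1 to 1134 in WT. MYL9 had 771.9, 432.5 and 312.3 CPM without enzyme, 50.89, 51.86 and 41.32 CPM with HAse1.5 and 240.1, 126.5 and 108.3 CPM with HAse2.5. Its KO libraries (73.78 to 253.6 CPM, median 155.2) lay below all WT libraries (377 to 676.2, median 530). CNN1 had 65.7 to 200.7 CPM in KO (median 116.8) and 191.2 to 457.7 in WT (median 268.6), and 18.62, 53.58 and 17.46 CPM in HAse1.5 beside 206.8, 108.3 and 153 CPM in untreated cardioids. At day 4.5, 4 of 10 genes were past the threshold in KO (3.74% of all genes, 2.6% lower), 7 in HAse1.5 (3.48%, 2.41% lower) and 1 in HAse2.5 (0.22%, 0.149% lower), all of them lower. TAGLN, on which the genes were chosen, is in each of these counts, so they are no test of the set and are not read against the shares of all genes. The summed level of 10 cardiomyocyte markers was below all untreated libraries in HAse1.5 and overlapped with the controls in KO and HAse2.5. It was 34711 to 62863 CPM in WT and 16530 to 43955 CPM in KO, and 25907 to 50591 CPM in untreated, 5349 to 19883 CPM in HAse1.5 and 19223 to 34099 CPM in HAse2.5 cardioids. Of the 10 markers, 4 were past the threshold in KO and 8 in HAse1.5, all of them lower, and 0 in HAse2.5. Their part in the day 4.5 values was not tested. Log2 differences of TAGLN2, which was not among them, were 0.39 in KO, −0.48 in HAse1.5 and −0.20 in HAse2.5.

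The partners of SRF were read from a list of 6 (MRTFA, MRTFB, MYOCD, ELK1, ELK3 and ELK4), all of them tested. MYOCD had 210.9, 299.6 and 304.5 CPM, from lowest to highest, in untreated cardioids at day 2.5 and 20.59, 35.6 and 87.08 CPM in HAse1.5, without overlap. It fell by 2.55 (SE 0.43, adjusted p = 0.0023) and was the only one of the 6 called there (1.15% of all genes). None of the 6 was called at day 7.5 with either enzyme start or between KO and WT at day 2.5 or 7.5. In WT, MYOCD rose by 4.90 (SE 0.61) from day 1.5 to 2.5 and by 1.81 (SE 0.54) from day 2.5 to 7.5.

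Of 16 other smooth muscle contractile genes, 14 were tested in the enzyme arm and 15 in the genotype arm. With HAse1.5, 1 of 14 fell at day 2.5 (1.15% of all genes were called) and 2 of 14 at day 7.5 (3.33%, 1.92% lower), and 0 rose. TPM1, the alpha-tropomyosin gene, was the one that fell at day 2.5 (by 1.94, SE 0.41, adjusted p = 0.0151), and at day 7.5 it was joined by SYNM, which encodes the intermediate filament protein synemin (falls of 1.43 and 3.34, adjusted p = 0.046 and 0.0306). In KO, 1 of 15 fell at day 2.5 (0.993% of all genes called, 0.5% lower), again TPM1 (by 1.22, SE 0.28, adjusted p = 0.0155), and 0 of 15 were called at day 7.5 (0.348%). Of 29 other actin and adhesion genes of the SRF type (27 tested in the enzyme arm, 28 in the genotype arm), 1 fell with HAse1.5 at day 2.5, DSTN (by 0.84, adjusted p = 0.0482), 1 fell in KO at day 2.5, WDR1 (by 0.88, adjusted p = 0.0255), and none was called at day 7.5 in KO or with either enzyme start. The shares of all genes are those just given, and 0.659% for HAse2.5. Of 10 immediate early genes, 7 were tested in the genotype arm and 5 in the enzyme arm. JUNB (by 2.72, adjusted p = 0.024) and EGR1 (by 2.28, adjusted p = 0.0433) fell in KO at day 7.5 (0.348% of all genes called). None was called at day 7.5 in the enzyme arm. The sum of the 10 was then 220 to 247.6 CPM in KO, 495.8 to 595.3 CPM in WT and 97.18 to 325.7 CPM in untreated cardioids. Blocks A and B supplied these WT libraries and B and C those of KO, so block and genotype cannot be told apart.

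Markers of the cell types that a cardioid could hold are given beside these results. At day 7.5 the summed level of 10 cardiomyocyte markers was 66065 to 74013 CPM in untreated, 31498 to 35596 CPM in HAse1.5 and 40830 to 65578 CPM in HAse2.5 cardioids, and 62272 to 70622 CPM in WT and 59355 to 67241 CPM in KO. With HAse1.5 at day 7.5, 3 of the 10 fell, MYL7, MYH7 and ACTN2, and none rose (3.33% of all genes called, 1.92% lower). At day 2.5, 5 of the 10 fell in KO (0.993%, 0.5% lower) and 2 in HAse1.5 (1.15%). Their sum was then 514.9 to 3028 CPM in WT and 918.1 to 1764 CPM in KO, and 2847 to 3950 CPM in untreated and 1315 to 1486 CPM in HAse1.5 cardioids. MYH6 and TNNT2, which are among the 5 that fell in KO, had at most 3 counts in each KO library of that day. Their falls rest on few counts. The 2 that fell in HAse1.5 were ACTC1 and MYL4. The part of cardiomyocyte content in the falls of TAGLN, MYL9, CNN1 and TPM2 was not tested.

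Of 6 defining smooth muscle markers, ACTG2 and MYH11 had few counts. ACTG2 had at most 2 counts in any library at day 7.5 of the enzyme arm, and MYH11, the smooth muscle myosin heavy chain, had 1 to 6 counts in untreated libraries and 0 in HAse1.5 libraries. The sum of the 6 smooth muscle markers at day 7.5 was 830.9 to 1038 CPM without enzyme, 579.2 to 832.7 CPM with HAse1.5, and came mostly from MYOCD, which cardiomyocytes also express, and LMOD1. None of the 4 that were tested was called between those groups. From day 2.5 to 7.5, 3 of the 5 tested in WT rose, LMOD1, DES and MYOCD (18.1% of all genes were called higher). In untreated cardioids 2 of 4 rose, LMOD1 and MYOCD (17.8%). DES had at most 3 counts in each WT library at day 2.5, so those libraries did not carry it past the filter on low counts. Its rise gives the 3 of 5 no support. Markers of fibroblasts and mesenchyme (9 genes) summed at day 7.5 to 484.6 to 1367 CPM without enzyme and to 1041 to 1360 CPM with HAse1.5, and endothelial markers (8 genes) to 160.6 to 257.1 and 147.5 to 314.9 CPM, with none of the tested genes of either list called. Epicardial markers (8 genes) summed to 53.6 to 66.76 and 68.31 to 105.1 CPM, with none called. Endoderm markers (7 genes) summed to 79.77 to 217.7 and 46.02 to 86.44 CPM, with AFP lower and at most 3 AFP counts in each HAse1.5 library. Of 6 cell stress genes, HSPA1B was higher in HAse1.5 cardioids at day 7.5 (log2 3.24, adjusted p = 0.0375), with at most 3 counts in each untreated library. Their part in the differences of the 10 genes was not tested.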

How the data were processed

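RNA of 65 cardioid libraries was read with a 3′ mRNA kit (QuantSeq FWD, single-end, per the labels' protocols). The authors deposited whole-number read counts per Ensembl gene, made with featureCounts (Subread 1.6.2) on hg38/GRCh38 per the submitters' processing notes. The aligner, the annotation, the strand setting and any use of molecular identifiers are not given in the sources used here. PCR copies without identifiers are not independent molecules. All 58735 gene IDs were found in GENCODE 29, and 58207 had a current symbol. Another 4 columns belong to no listed sample and were not used.

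CPM values and log2 CPM (prior count 2) were computed from the deposited counts. edgeR 4.0.16 in R 4.3.3 was fitted over all libraries of an arm (filterByExpr with a minimum count of 10, TMM factors, robust quasi-likelihood, 1 mean per group), and over the 65 libraries to compare the arms. Tests were two-sided F-tests, adjusted by Benjamini-Hochberg over 13797 (genotype), 12748 (enzyme) or 14047 genes (both), with a threshold of 0.05. The fit was tested on simulated data. Alternatives were DESeq2 1.42.0, RLE size factors, no filter on low counts, the compared groups alone, a replicate block, and leaving out single libraries.

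Groups were taken from the titles. Named were the 10 genes in every comparison, from each further list at most the 3 tested genes with the largest absolute log2 fold change past the threshold, and the 5 genes most like TAGLN by Pearson r over 16 group means. MYH11 and ACTG2 were named as defining markers, and genes overlapping the 10 for their position. The 10 genes and the lists were chosen with earlier results of these data known. In the enzyme arm the labels give the same line to the same replicate number, so these numbers pair the samples. Residuals of 14 of 21 such pairs correlated with r over 0.1 (lowest −0.35, highest 0.69, 5000 genes). In the genotype arm the block was the range of library numbers (33 of 37 pairs over 0.1, lowest −0.05, highest 0.91). The fits as reported left out the pairing and the block, which entered only as an alternative.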

Additional observations from a re-analysis of the deposited data

Results flagged for a closer look

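Among 60 sets of 4 to 10 libraries of a group, each tested for a library far from the others in 1 of the 10 genes, 2 stood apart, where chance gives about 1 in 20. TAGLN in the WT line cl43_WT_UT at day 4.5 was at 5.85 log2 CPM (59.33 CPM), below the other 5 WT libraries at 90.52 to 102.1 CPM, and still above all KO libraries of that day. VCL in the KO clone library cl4_R1 at day 2.5 was at 7.62 log2 CPM (222.6 CPM), above the other 5 KO libraries at 131.8 to 152.1 CPM. This library has the fewest counts of the series (831062), and the part of depth in its VCL value was not tested.

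The difference in TAGLN between HAse1.5 and untreated cardioids was not the same at days 2.5 and 7.5. It was −0.74 at day 2.5 and −3.65 at day 7.5 on the log2 scale, and the difference of these differences was −2.92 (edgeR adjusted p = 0.00989, lower in all 3 lines at both days). Day and length of exposure to the enzyme cannot be told apart here.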

How the results depend on the processing

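Of 17 counts of called genes among the 10, those below left a factor of 1.5 of the reported count, or moved from or to 0. With no filter on low counts, the count was 0 instead of 1 in KO at day 2.5, 1 instead of 0 in HAse2.5 and in HAse1.5 against HAse2.5 at day 7.5, 2 instead of 1 for the change of the HAse1.5 difference over days, and 3 instead of 0 for KO against HAse1.5 differences at day 7.5. With DESeq2 the same comparisons, where they moved, had 2 (KO at day 2.5), 2 (HAse2.5 at day 7.5), 1 (HAse1.5 against HAse2.5) and 1 (KO against HAse1.5 at day 7.5), and the KO difference over days had 1 instead of 0. With the compared groups alone, the change of the HAse1.5 difference over days had 0, and KO against HAse1.5 at day 7.5 had 2. The replicate block gave 2 instead of 0 for KO against HAse1.5 at day 7.5 and, beyond the calls given with the results, changed no other call of the 10. The cause was not tested. TAGLN counts of day 4.5 chose the genes, so the counts of calls at that day are a description, and how they move says nothing of stability: HAse2.5 had 2 instead of 1 with DESeq2 and with the compared groups alone, and without single libraries it had 0 to 1 and HAse1.5 had 4 to 6.

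Leaving out single libraries gave counts of 0 to 2 in KO at day 2.5, 2 to 5 in HAse1.5 and 0 to 1 in HAse2.5 at day 7.5, 2 to 4 and 5 to 7 in the WT steps, 5 to 6 in untreated, and 0 to 1 for the KO difference over days and for KO against HAse1.5 at day 7.5. The direction of TAGLN turned where its difference was small: in KO at day 1.5 it was 0.13 with the replicate block and −0.40 to 0.18 without single libraries (reported −0.08), and in WT from day 2.5 to 7.5 it was −0.49 to 0.03 without single libraries (reported −0.12), above 0 without WT_TU_R2 of day 2.5 (0.005), WT_TU_R2 of day 7.5 (0.027) or WT_R2 of day 7.5 (0.031). In HAse1.5 at day 7.5, TAGLN and MYL9 were called in 11 of 11 alternatives (highest adjusted p 0.0139 and 0.0431), TPM2 in 10 and CNN1 in 9. The rise of TAGLN in untreated cardioids was called in 5 of 11.

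Over all genes, counts of calls ranged over the alternatives from 66 to 292 in KO at day 2.5, 27 to 193 in KO at day 7.5, 61 to 290 in HAse1.5 at day 2.5, 145 to 713 in HAse1.5 and 3 to 377 in HAse2.5 at day 7.5. ACTA2 at days 1.5 and 2.5 and TAGLN2 at day 7.5 rest on few counts, which limits the precision of their folds.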
